A study of Arabidopsis thaliana with 5 samples.

Results

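Transcripts of 10 genes that remodel the wall of growing root hairs were followed in roots of Arabidopsis thaliana supplied with little or much magnesium. The genes were taken by locus from the deposited expression matrix, where all 10 were found among 33559 loci. They are the expansin genes EXPA7 (AT1G12560) and EXPA18 (AT1G62980), the proline-rich protein genes PRP1 (AT1G54970) and PRP3 (AT3G62680), and the leucine-rich repeat extensin genes LRX1 (AT1G12040) and LRX2 (AT1G62440). The last 4 are the xyloglucan endotransglucosylase/hydrolase genes XTH12 (AT5G57530), XTH13 (AT5G57540), XTH14 (AT4G25820) and XTH26 (AT4G28850). The plants were a wild line labelled Col-1, cultivated for 5 weeks. Roots came from a control at 4 d, from plants given 0.5 µM Mg (low Mg) for 4 or 7 d, and from plants given 10 mM Mg (high Mg) for 4 or 7 d. The labels used here give no Mg level for the control, no number of plants per sample and no control of 7 d. Every group is represented by 1 library without replicates, so each difference is between a pair of libraries, has no replicate error and was given no p-value.

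A root hair is a tubular outgrowth of an epidermal cell that elongates at its tip. For the tip to extend, the wall must yield without bursting. Expansins loosen the bonds between cellulose and matrix at acid pH, and XTH enzymes cut xyloglucan chains and rejoin them. PRPs are structural wall proteins, and LRX proteins join a leucine-rich repeat domain to an extensin domain held in the wall. EXPA7 and EXPA18 are textbook hair-cell genes, LRX1 and LRX2 act together in hair wall assembly, and the bHLH factor RSL4 drives hair elongation.

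Levels are in FPKM, a fragment count scaled to transcript length and to the mapped total, which allows levels of different genes to be compared. The libraries held between an estimated 6.58 M fragments (low Mg, 7 d) and 12.9 M (low Mg, 4 d). Root identity was visible in every library: the endodermal genes CASP1, SCR and MYB36 summed to 219 to 419 FPKM. The summed level of 6 shoot photosynthesis genes lay between 4.95 and 10.1 FPKM, and LHCB1.1 was listed at 0 in the 3 libraries of 4 d. The reads are from whole roots, in which fewer hair cells and less RNA per hair cell cannot be told apart.

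The upstream sequences are shown first because 6 of the 10 genes held a motif there that did not enter their choice. The root hair element, RHE, is a degenerate motif that RSL4 is known to bind. It was searched on both strands, with either of its known spacings, in the 300 nt before the annotated gene start in the RefSeq annotation of TAIR10.1. It was found in those 6 genes, in none of the XTH genes, and in 0.922% of 26694 nuclear coding genes. The RHE was described in the literature from root hair genes of this kind, EXPA7 among them, so the share among the members is not independent of how the motif was defined. Shown here, 5′ to 3′ on the strand of the gene, are the 300 nt upstream of 5 genes, with the RHE match in capitals:
EXPA7 upstream: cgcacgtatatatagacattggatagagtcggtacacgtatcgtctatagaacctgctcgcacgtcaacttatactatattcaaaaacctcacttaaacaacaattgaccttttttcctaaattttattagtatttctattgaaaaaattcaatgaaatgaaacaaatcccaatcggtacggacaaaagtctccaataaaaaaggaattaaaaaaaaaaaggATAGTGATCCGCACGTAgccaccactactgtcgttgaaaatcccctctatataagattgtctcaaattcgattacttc
EXPA18 upstream: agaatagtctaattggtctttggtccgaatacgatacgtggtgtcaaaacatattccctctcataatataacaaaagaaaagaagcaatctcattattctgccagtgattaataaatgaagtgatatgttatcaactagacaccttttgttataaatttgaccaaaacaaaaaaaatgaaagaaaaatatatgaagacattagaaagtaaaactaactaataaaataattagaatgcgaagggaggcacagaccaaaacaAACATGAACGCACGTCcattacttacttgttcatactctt
PRP1 upstream: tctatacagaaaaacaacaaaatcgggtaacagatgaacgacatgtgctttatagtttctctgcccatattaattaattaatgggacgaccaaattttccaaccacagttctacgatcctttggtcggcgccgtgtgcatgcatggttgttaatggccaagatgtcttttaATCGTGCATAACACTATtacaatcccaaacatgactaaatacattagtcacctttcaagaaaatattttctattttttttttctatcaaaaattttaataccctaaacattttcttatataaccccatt
PRP3 upstream: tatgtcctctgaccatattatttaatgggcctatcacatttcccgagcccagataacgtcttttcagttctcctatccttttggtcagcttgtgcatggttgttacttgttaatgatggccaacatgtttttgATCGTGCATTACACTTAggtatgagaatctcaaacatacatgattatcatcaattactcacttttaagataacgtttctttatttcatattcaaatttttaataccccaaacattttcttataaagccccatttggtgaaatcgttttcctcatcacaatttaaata
LRX1 upstream: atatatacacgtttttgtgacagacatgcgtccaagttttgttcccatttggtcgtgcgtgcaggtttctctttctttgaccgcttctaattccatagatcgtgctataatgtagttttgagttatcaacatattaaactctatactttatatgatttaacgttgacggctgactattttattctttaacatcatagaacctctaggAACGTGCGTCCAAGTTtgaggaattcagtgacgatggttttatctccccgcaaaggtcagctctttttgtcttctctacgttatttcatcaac
These windows are chr1:4276205-4276504, chr1:23331263-23331562, chr1:20504601-20504900, chr3:23182422-23182721 and chr1:4069692-4069991 of TAIR10.1, all on the plus strand. In EXPA7 and EXPA18 the match lay on the strand of the gene, starting 78 and 40 nt before the gene start. In PRP1, PRP3 and LRX1 it lay on the opposite strand, starting 129, 167 and 93 nt before the start. LRX2 held the match GACGTGCTTATCAATAT on the opposite strand, 257 nt before a gene model that begins at its start codon. Neither the 300 nt nor the 1000 nt upstream of XTH12, XTH13, XTH14 and XTH26 held a match. This says only that these letters were not in those windows.

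**Figure D1:**
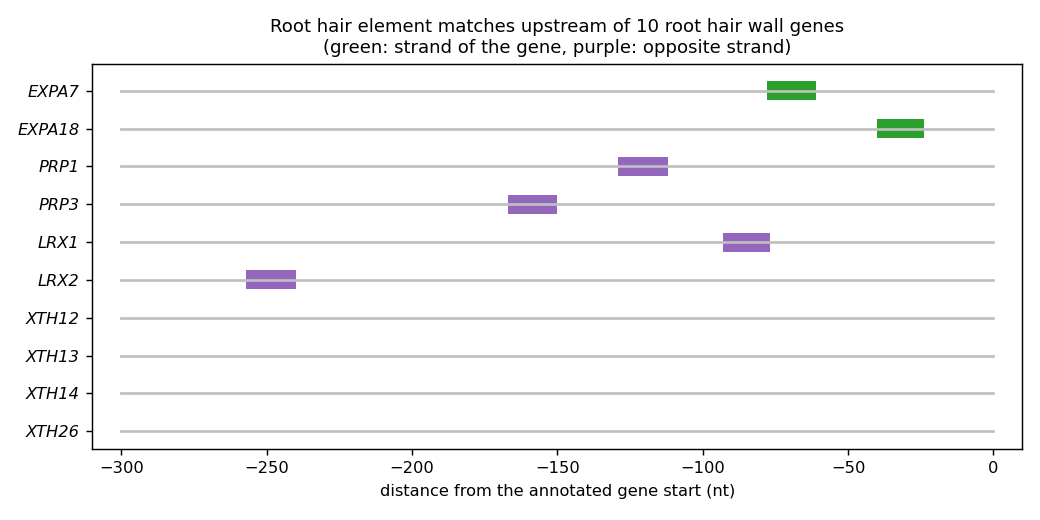
Position of RHE matches in the 300 nt upstream of each of the 10 genes, as distance in nt from the annotated gene start (bars, green on the strand of the gene and purple on the opposite strand; grey lines mark the windows). The expansin, PRP and LRX genes hold 1 match each and the 4 XTH genes hold 0.

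Both expansin genes were expressed at similar levels in every library. EXPA7 (chromosome 1, 4276505 to 4277969) stood at 55.4 FPKM in the control, at 35.9 (low Mg) and 70.3 (high Mg) after 4 d, and at 53.0 (low Mg) and 19.4 (high Mg) after 7 d. EXPA18 (chromosome 1, 23331563 to 23333246) stood at 46.4, 40.2, 71.7, 50.04 and 14.4 FPKM in the same order. Each was thus highest in high Mg at 4 d and lowest in high Mg at 7 d, with low Mg and the control between. Their coding sequences were identical at 75.4% of aligned positions, and no 50-nt stretch of their exons occurred elsewhere on the same strand of the genome. Copies on the opposite strand were not counted, here and for the genes below.

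The XTH genes spanned a wide range of levels. XTH14 (chromosome 4, 13130291 to 13131860) was the strongest, at 121 FPKM in the control, 96.6 (low Mg) and 154 (high Mg) after 4 d, and 186 (low Mg) and 36.1 (high Mg) after 7 d. XTH26 (chromosome 4, 14244290 to 14246037) stood at 26.0, 21.4, 43.8, 51.2 and 6.36 FPKM in that order. For these genes the low Mg library at 7 d was the highest of the 5, exceeding the high Mg library of 4 d, and the high Mg library of 7 d was the lowest.

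XTH12 and XTH13 are neighbours on the minus strand of chromosome 5 (23300321 to 23301689 and 23302787 to 23304095), 1097 nt apart, and were weakly expressed. XTH12 stood at 6.002 FPKM in the control, 5.71 (low Mg) and 16.7 (high Mg) after 4 d, and 13.0 (low Mg) and 1.43 (high Mg) after 7 d. XTH13 stood at 2.25, 1.27, 13.9, 5.02 and 2.71 FPKM in that order. High Mg at 4 d was the highest library for both, but the lowest was high Mg at 7 d for XTH12 and low Mg at 4 d for XTH13. The coding sequences of the pair matched at 89.7% of aligned positions. Yet no 50-nt stretch of the exons of either was found a second time on the same strand of the genome. Reads of the pair could still be split between them by the authors' counting, so their separate values are less certain than their common direction. The next genes of this run differed from them: XTH25 (AT5G57550) was listed at 0 in 4 libraries, and the touch gene XTH22 (TCH4, AT5G57560) was highest in low Mg at 4 d, at 32.3 FPKM against 7.72 to 12.1 in the others. XTH23 (AT4G25810), the neighbour of XTH14, stood at 21.5 FPKM in the control and 16.6, 11.1, 16.8 and 7.26 in the 4 treated libraries in the order used above.

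The PRP genes differed most from each other. PRP3 (chromosome 3, 23182722 to 23184042) was strongly expressed, at 118 FPKM in the control, 103 (low Mg) and 191 (high Mg) after 4 d, and 119 (low Mg) and 23.4 (high Mg) after 7 d. PRP1 (chromosome 1, 20504901 to 20506504) stood at 0.242, 1.07, 41.6, 2.502 and 3.49 FPKM in that order. PRP1 was therefore at least 10 FPKM only in high Mg at 4 d, and its control value rested on about 3.55 fragments against about 677 in high Mg at 4 d. PRP3 shared the high level in high Mg at 4 d but was well expressed in all 5 libraries. The coding sequences of this pair were identical at 83.8% of aligned positions. No 50-nt stretch of their exons was repeated on the same strand of the genome.

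The LRX genes parted at 7 d. LRX1 (chromosome 1, 4069992 to 4072681) stood at 65.0 FPKM in the control, 49.0 (low Mg) and 73.7 (high Mg) after 4 d, and 46.3 (low Mg) and 12.6 (high Mg) after 7 d. LRX2 (chromosome 1, 23112933 to 23115293) stood at 17.1, 13.2, 37.5, 12.5 and 15.2 FPKM in that order. LRX1 thus had its lowest level in high Mg at 7 d, whereas the 4 values of LRX2 outside high Mg at 4 d lay between 12.5 and 17.1 FPKM. Of the exon positions of LRX1, 1.67% began a 50-nt stretch found again on the same strand of the genome.

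**Figure D2:**
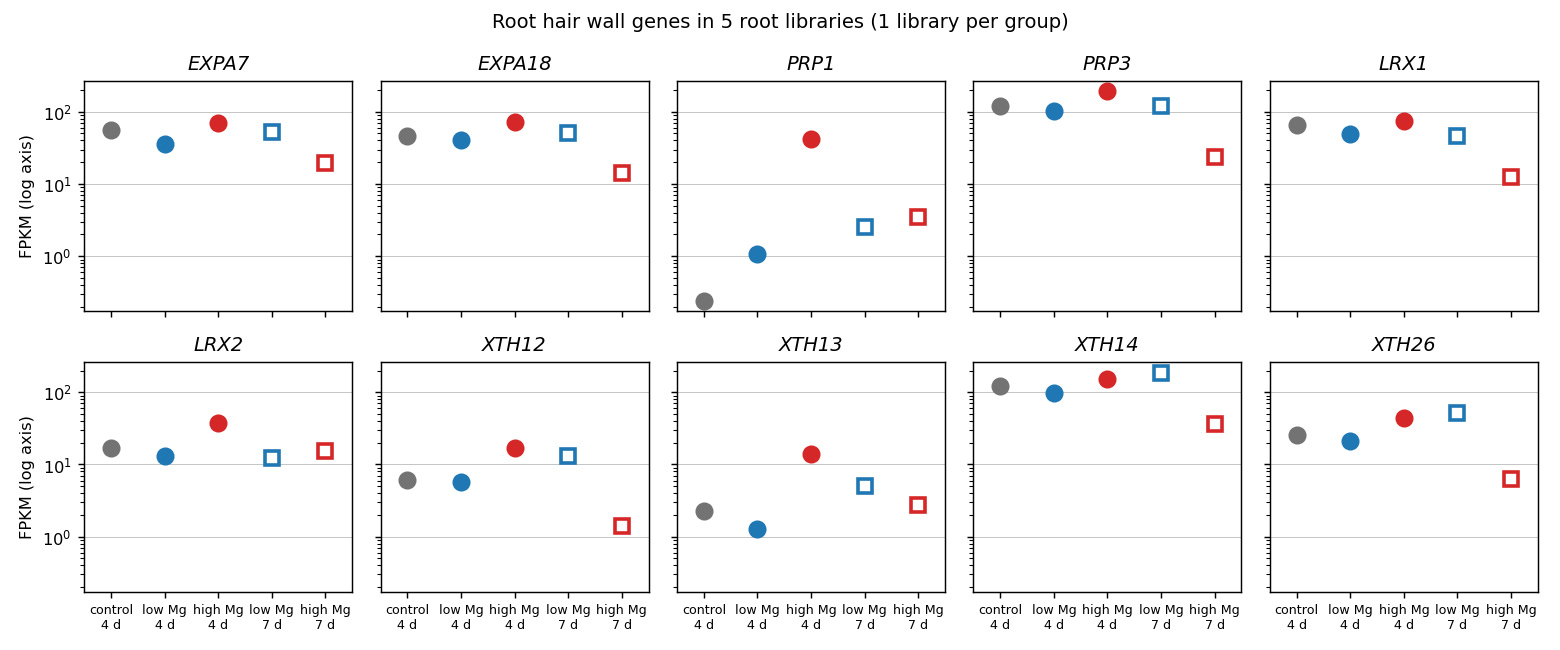
FPKM (log axis) of the 10 genes in the 5 libraries, 1 point per library (filled circles 4 d, open squares 7 d, grey control, blue low Mg, red high Mg). High Mg at 4 d is the highest library for 8 genes, and high Mg at 7 d is the lowest for 7.

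Across the set, high Mg at 4 d was the highest library for 8 genes, and low Mg at 7 d for XTH14 and XTH26. High Mg at 7 d was the lowest for 7 genes, all but PRP1, LRX2 and XTH13. The summed level of the 10 genes was 458 FPKM in the control, 367 (low Mg) and 714 (high Mg) after 4 d, and 538 (low Mg) and 135 (high Mg) after 7 d. Within each library XTH14 and PRP3 held the first 2 ranks. PRP1 was the lowest gene in 3 libraries, while XTH13 was in high Mg at 4 d and XTH12 in high Mg at 7 d. Of the 50 values, 8 rested on fewer than about 50 fragments, all of them in PRP1, XTH12 and XTH13. The lowest of the other 7 genes was XTH26 in high Mg at 7 d, at about 82.6 fragments.

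Low Mg against the control at 4 d showed small differences. Ratios here and below are log2((a + 1)/(b + 1)) of FPKM, which understates the change of weakly expressed genes, and a log2 ratio of 1 or -1 counted as 2-fold. At least 5 FPKM in 1 of the libraries compared was required, which 8 members met (PRP1 and XTH13 did not). Of these 8, 0 were 2-fold higher and 0 were 2-fold lower, where 2.16% of 15873 nuclear genes were higher and 1.67% lower. EXPA7 differed most, at -0.61, and XTH12 least, at -0.06. All 8 lay below 0, with a median of -0.30 beside -0.02 over all genes. When values were rescaled to the sum over all nuclear loci (TPM), 7 of the 8 lay above 0 with a median of 0.16, but all genes then moved to a median of 0.36.

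High Mg against the same control at 4 d placed all 10 genes above 0. The 2-fold mark was passed by 4, namely PRP1 at 5.10, XTH13 at 2.19, XTH12 at 1.34 and LRX2 at 1.09, where 2.52% of 15962 nuclear genes were 2-fold higher. None of the members was 2-fold lower, against 3.83% of all genes. PRP1 and XTH13 met the 5 FPKM requirement only through the high Mg library. The other 6 lay between 0.18 (LRX1) and 0.73 (XTH26). The median of the 10 was 0.71 and that of all genes was 0.00. In TPM over all nuclear loci 10 were 2-fold higher, with the median of all genes at 1.04. Of the 8 members that met a filter of 20 FPKM, 2 were 2-fold higher. LRX1, EXPA7 (0.34) and XTH14 (0.34) differed least from the control, while PRP3, also strongly expressed, was at 0.68. Low Mg and high Mg share this control library, so the values of both comparisons also carry whatever is particular to it.

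Low against high Mg at 4 d does without the control, and all 10 genes were lower in low Mg. The 2-fold mark was passed by 5: PRP1 at -4.36, XTH13 at -2.71, LRX2 at -1.43, XTH12 at -1.40 and XTH26, at 21.4 against 43.8 FPKM. PRP1 and XTH13 met the 5 FPKM requirement only through the high Mg library, where they are high. Of 15837 nuclear genes, 1.80% were 2-fold lower and 3.69% 2-fold higher, and 0 members were higher. EXPA7 at -0.95, PRP3 at -0.88, EXPA18 at -0.82, XTH14 at -0.67 and LRX1 at -0.58 fell short of 2-fold. The median of the members was -0.98 beside -0.02 for all genes. XTH26 stood at the edge of the call and came to -0.99 after scaling by the median ratio of expressed genes. In TPM over all nuclear loci 10 were 2-fold lower, with the median of all genes at -0.69. Of the 8 members that met a filter of 20 FPKM, 3 were 2-fold lower.

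At 7 d the comparison of low with high Mg had the opposite sign for 8 of the 10 genes. XTH26 was higher in low Mg at 2.83, XTH12 at 2.53, XTH14 at 2.33, PRP3 at 2.29, LRX1 at 1.80, EXPA18 at 1.73 and EXPA7 at 1.40. These 7 of the 9 genes that met the 5 FPKM requirement were 2-fold higher, where 2.54% of 15684 nuclear genes were. XTH12 and XTH13 met it only through the low Mg library. XTH13 was at 0.70, short of 2-fold, and LRX2 at -0.27. PRP1 was below 5 FPKM in both libraries, at 2.502 and 3.49. None of the members was 2-fold lower, against 3.21% of all genes. The median of the 9 was 1.80, beside 0.00 for all genes.

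Set side by side, the Mg comparisons of the 2 days use separate libraries. Of the 9 genes measured on both days, 8 were below 0 at 4 d and above 0 at 7 d, as were 28.9% of 14843 nuclear genes. XTH12 and XTH26 passed 2-fold in both directions, as did 0.269% of nuclear genes. Both stood close to a limit: XTH26 came to -0.99 at 4 d after scaling by the median ratio. XTH12 in high Mg at 7 d rested on about 18.0 fragments and met the 5 FPKM requirement at 7 d only through low Mg. LRX2 was lower in low Mg on both days, at -1.43 and -0.27.

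**Figure D3:**
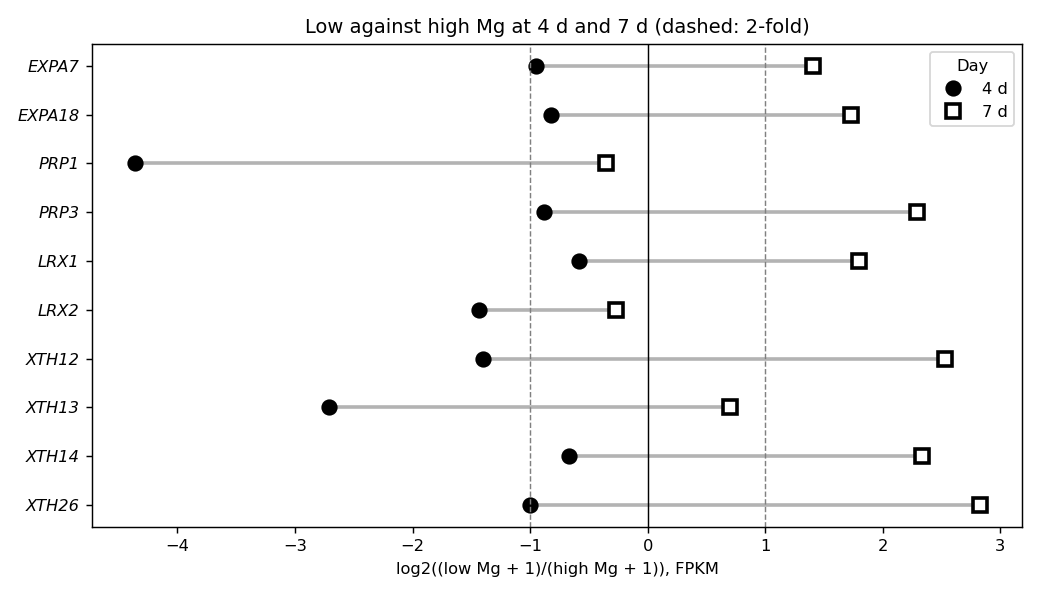
Log2 ratio of low to high Mg for each gene at 4 d (filled circles) and 7 d (open squares), with dashed lines at 2-fold; PRP1 at 7 d was below 5 FPKM in both libraries. All 10 genes lie left of 0 at 4 d, and 8 lie right of 0 at 7 d.

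Days were also compared within a Mg level. In high Mg all 10 genes were at least 2-fold lower at 7 d than at 4 d, from -1.24 (LRX2) to -3.24 (PRP1). Of 16081 nuclear genes, 11.3% were 2-fold lower in that comparison and 4.65% 2-fold higher. PRP1, XTH12 and XTH13 met the 5 FPKM requirement only through the library of 4 d, where they are high. PRP3 was at -2.97, XTH12 at -2.87, XTH26 at -2.61, LRX1 at -2.46 and EXPA18 at -2.24. The remaining genes were XTH14 at -2.06, XTH13 at -2.01 and EXPA7 at -1.80. The median of the 10 was -2.35 beside -0.15 over all genes. Rescaled to TPM over all nuclear loci, 5 of the 10 remained 2-fold lower and LRX2 turned to 0.16, while the median of all genes turned to 1.18. In TPM over coding genes 9 of the 10 remained 2-fold lower and LRX2 came to -0.76, while the median of all genes was 0.33.

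In low Mg, 3 of the 9 genes that met the 5 FPKM requirement were 2-fold higher at 7 d, XTH13 at 1.40, XTH26 at 1.22 and XTH12 at 1.06, where 4.03% of 16182 nuclear genes were. None of the members was 2-fold lower, against 12.9% of all genes. XTH14 was at 0.94, EXPA7 at 0.55, EXPA18 at 0.31 and PRP3 at 0.20, and LRX1 and LRX2 both at -0.08. The median of the 9 was 0.55, beside -0.16 over all genes. XTH13 met the requirement only through the library of 7 d. The count depended on the scaling and the filter. In TPM over all nuclear loci 9 of the 9 were 2-fold higher (median 2.38, where that of all genes was 1.76). In TPM over coding genes 5 of the 9 were. A filter of 20 FPKM was met by 6 members, of which 1 was 2-fold higher. LRX1 and LRX2 lay above 0 in each of the 3 rescalings. The submitters' processing notes name TopHat2 and Cufflinks for the libraries of 4 d and no tool for those of 7 d. A difference in processing between the days was not tested and cannot be told apart from time. The share of the locus AT2G01021 in the summed FPKM also differed by day, at 57.5% to 82.3% at 4 d and 15.6% to 18.5% at 7 d.

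**Figure D4:**
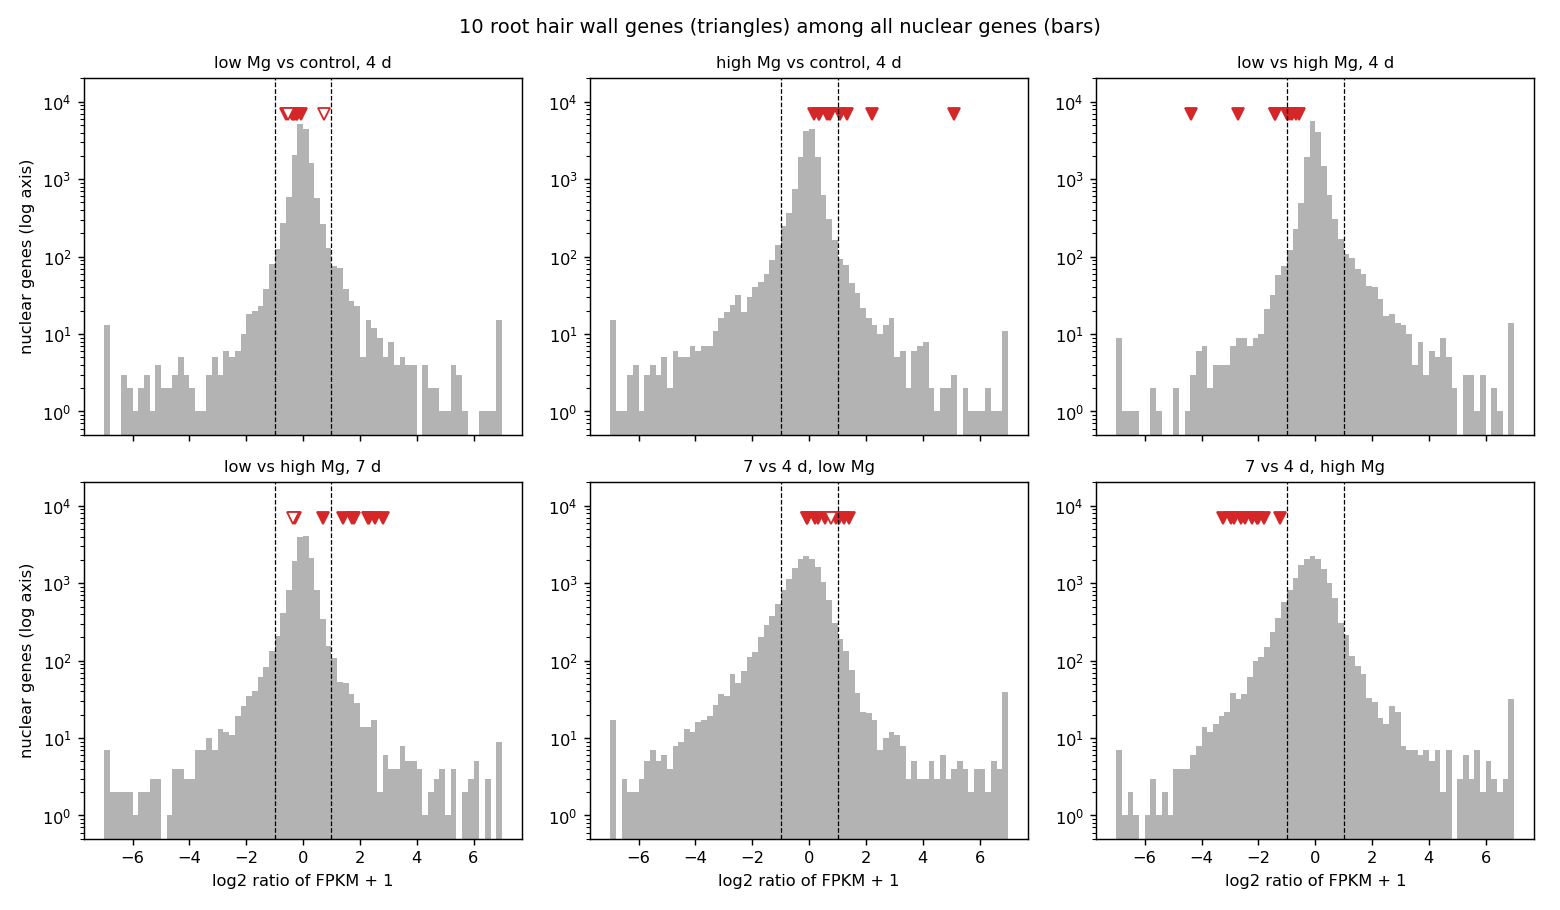
Log2 ratios of all nuclear genes with at least 5 FPKM in 1 of the libraries compared (bars, log axis, values beyond 7 drawn at the edge) with the 10 genes as triangles (open where below 5 FPKM in both libraries) and dashed lines at 2-fold. The triangles lie left of 0 for low against high Mg at 4 d, mostly right of it at 7 d, and beyond the 2-fold line for high Mg at 7 d against 4 d.

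Other genes of the same families lay on both sides. Of 23 other alpha-expansin genes, 12 met the requirement for high Mg at 7 d against 4 d, with EXPA17 higher at 1.66 and EXPA3 lower at -1.39. Of all nuclear genes in that comparison, 4.65% were 2-fold higher and 11.3% lower. EXPA3 met the requirement only through the library of 4 d. EXPA17 (AT4G01630) was lower in low than in high Mg at 7 d, at 17.4 against 79.5 FPKM, the opposite side to EXPA7 and EXPA18. EXPA12 (AT3G15370) was lower in low Mg on both days, at -2.27 and -1.09. At 4 d EXPA12 met the requirement only through the high Mg library. Of 29 other XTH genes, 20 met the requirement for low against high Mg at 7 d, and 2 were 2-fold higher, as were 2.54% of nuclear genes. They were XTH23 at 16.8 against 7.26 FPKM and XTH30 at 78.8 against 38.9 FPKM. XTH17 (AT1G65310) was lower in low than in high Mg at 4 d (-1.74), at 20.7 against 71.6 FPKM. At 7 d XTH17 stood at 107 FPKM in low Mg, its highest of the 5 libraries as for XTH14 and XTH26, and at 63.2 FPKM in high Mg. XTH22 at 1.39 and XTH24 at 1.37 were higher in low Mg at 4 d. Between days in high Mg (7 d against 4 d), XTH5 at -2.02 and XTH15 at -1.15 were lower, as the members were. XTH20 at 1.18 and XTH7, at 6.74 against 2.87 FPKM, were higher. XTH7 met the requirement only through the library of 7 d. In low Mg XTH15 was also lower at 7 d, at -1.16, and XTH5 stood at 36.1 (4 d) and 21.1 FPKM (7 d). PRP4 stood between 7.90 and 12.5 FPKM and was not 2-fold apart in any of the 6 comparisons, while PRP2 was listed at 0 in all 3 libraries of 4 d. Among 9 other loci of the LRX family, AT3G22800 was lower in low than in high Mg at 7 d (-1.06), at 47.8 against 101 FPKM. In high Mg at 7 d against 4 d, 2 of the 5 that met the requirement were 2-fold lower. They were LRX10 at -1.59 and LRX5 at -1.50, the same direction as LRX1 and LRX2. LRX10 met it only through the library of 4 d. In low Mg LRX10 was also lower at 7 d, at -2.15, and LRX5 stood at 30.0 (4 d) and 15.9 FPKM (7 d). LRX1 and LRX2 were both at -0.08 in low Mg.

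Hair genes outside the families of the members, wall genes among them, were compared from lists that hold no member. Of 11 other root hair genes, such as extensins, peroxidases and arabinogalactan proteins, 3 were 2-fold lower and 1 higher in low than in high Mg at 4 d. Of all nuclear genes, 1.80% were 2-fold lower and 3.69% higher in that comparison. The higher gene, RHS15, met the 5 FPKM requirement only through the low Mg library. At 7 d, 8 of the 11 were 2-fold higher in low Mg and 0 lower, led by RHS15 at 4.25, RHS13 at 2.67 and AGP3 at 2.36. Of all nuclear genes, 2.54% were 2-fold higher and 3.21% lower at 7 d. RHS15, RHS10 and RHS12, which are among the 8, met the 5 FPKM requirement only through the low Mg library. RHS15 encodes a glycerol-3-phosphate permease rather than a wall protein. Of 15 genes of the tip growth machinery, 14 met the requirement at 7 d and 4 were higher in low Mg, COW1, ADF8, CAP1 and COBL9, at 1.67, 1.34, 1.17 and 1.04. At 4 d, 2 of 14 were lower, CAP1 at -1.19 and COBL9 at -1.07. CAP1 met the requirement on each day only through the library where it was higher. In high Mg at 7 d against 4 d, 8 of the 10 other root hair genes that met the requirement were 2-fold lower. So were 5 of the 15 tip growth genes, and 11.3% of nuclear genes. RHS10, RHS12, CAP1 and PIP5K3 among these met it only through the library of 4 d.

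Among 8 root hair transcription factors, RSL4 was lower in low than in high Mg at 4 d (-1.84), at 2.09 against 10.0 FPKM, and LRL3 was higher in low Mg at 7 d (1.01), at 26.8 against 12.8 FPKM. In high Mg at 7 d against 4 d, 4 of the 6 that met the 5 FPKM requirement were 2-fold lower, where 11.3% of nuclear genes were. They were LRL3 at -2.09, RSL4 at -1.59, LRL2 at -1.25 and RSL2 at -1.18. RSL4 met the requirement in both of these comparisons only through high Mg at 4 d. LRL2 was also lower at 7 d than at 4 d in low Mg, at -1.36. The hair cell markers COBL9, RHD2 and RSL4 moved with the members in part. They are not a separate set, as COBL9 and RHD2 are among the tip growth genes and RSL4 among these transcription factors. Of their sum, RHD2 alone made up between 28.8 and 41.0 FPKM. Together the markers were at 40.1 FPKM in the control, 41.4 (low Mg) and 70.1 (high Mg) after 4 d, and 53.8 (low Mg) and 38.8 (high Mg) after 7 d. The non-hair markers GL2, WER and TTG2 summed to 35.9, 37.0, 51.6, 35.4 and 41.6 FPKM in that order. All 6 of these markers were above 0 in every library, and their part in the members' differences was not tested.

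The genes with a pattern closest to the members were sought among 16139 nuclear coding genes with an exon length of at least 500 nt and at least 5 FPKM in some library. Likeness was the root mean square difference, over the 5 libraries, between a gene's centred log2(FPKM + 1) and the median profile of the 10 members. That median profile was 0.16 in the control, -0.19 (low Mg) and 0.94 (high Mg) after 4 d, and 0.33 (low Mg) and -1.45 (high Mg) after 7 d. The closest were AT5G17390 (difference 0.15) and MRH6 (0.16), a gene known from root hair morphogenesis, both annotated as adenine nucleotide alpha hydrolase-like proteins. MRH6 stood at 21.3 FPKM in the control, 16.1 (low Mg) and 29.0 (high Mg) after 4 d, and 25.6 (low Mg) and 6.33 (high Mg) after 7 d. AT3G48940, a remorin family gene, followed at 0.17, then AT5G04960, of the pectin methylesterase inhibitor superfamily, at 0.17, and AT1G11920, of the pectin lyase-like superfamily, at 0.19. The peroxidase gene AT1G30870 (0.20), MOP10 (0.20), of an extensin family, and AT5G06990 (0.21), a MIZU-KUSSEI-like gene, completed the 8. Among the members, EXPA18 lay closest to the shared profile (0.11) and EXPA7 at 0.21, whereas PRP1 (1.60), XTH13 (0.77) and LRX2 (0.68) lay farthest from it. The profile is built from the members themselves. The number of other genes closer to it was 0 for EXPA18, 7 for EXPA7, 2642 for LRX2, 6463 for XTH13 and 15916 for PRP1.

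**Figure D5:**
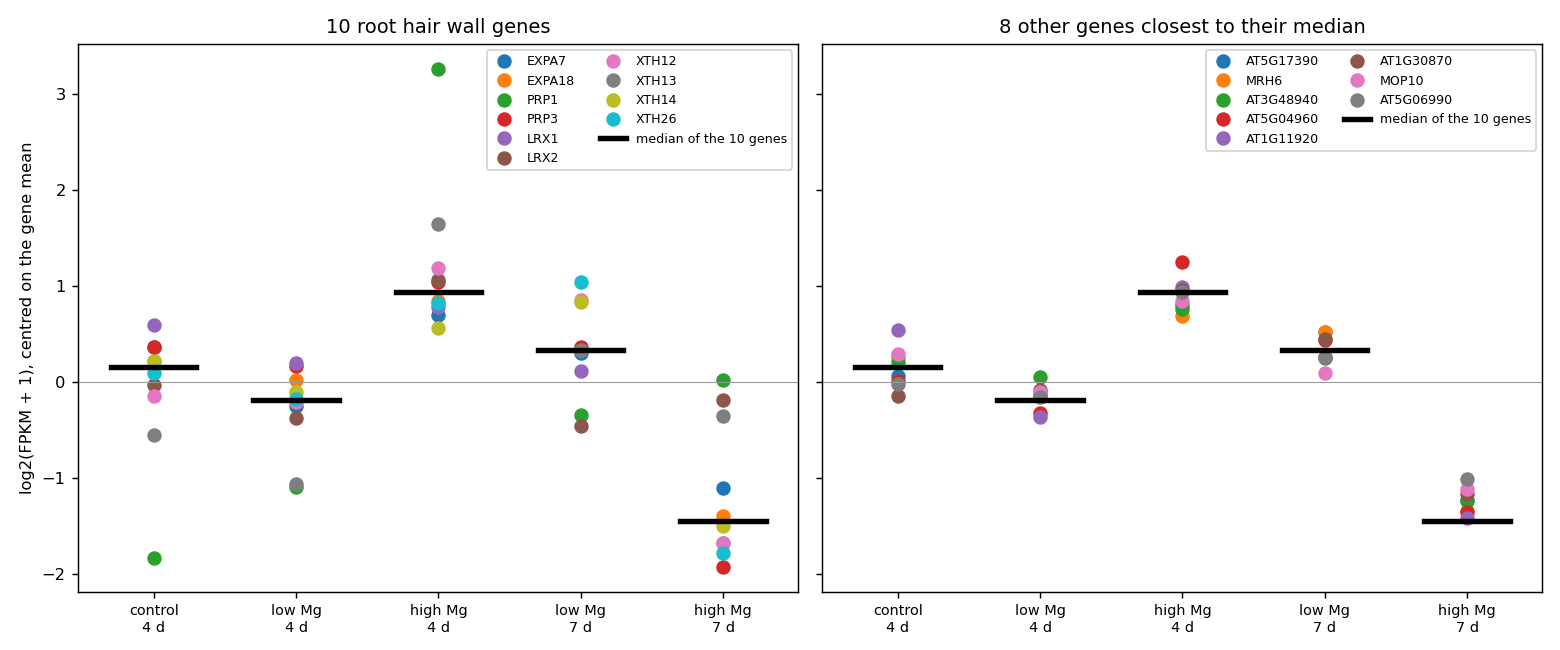
Log2(FPKM + 1) centred on the mean of each gene over the 5 libraries, for the 10 genes (left) and the 8 other genes closest to their median (right), with black bars at the median of the 10. PRP1 stands far above the median in high Mg at 4 d and far below it in the control, and PRP1, LRX2 and XTH13 stand above it in high Mg at 7 d.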

How the data were processed

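RNA-seq values of 5 root libraries, grouped by sample title, were used as deposited. Nothing in the headers names their unit. It was taken as FPKM from the tools that the submitters' processing notes list for the 4-d libraries (TopHat2 2.0.8 and Cufflinks 2.1.1, with TAIR10) and from the values of all 5. For the 7-d libraries those notes list TAIR10 alone, and the aligner, the counting tool, strand and any scaling between libraries are not given there or in any other source used here. The matrix and the tables of the single samples differed in 0 values.

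Ratios were computed as log2((a + 1)/(b + 1)) on FPKM, for 33280 nuclear loci filtered at 5 FPKM in at least 1 of the libraries compared, with 2-fold as the call. With 1 library per group no test was possible. Library sizes were estimated by taking the lowest common value of FPKM times exon length, over coding genes of at least 2000 nt, as 1 fragment, so fragment numbers are approximate and cover counting error only. Exon lengths, positions and upstream windows came from the RefSeq annotation of TAIR10.1, which held 32809 loci (97.8%). The deposited tables carry no coordinates. Work was done in Python 3.11.15 with pandas 2.3.3 and Biopython 1.88 (global alignment of coding sequences), and the ratio step was tested on simulated data.

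The members and lists were chosen with earlier results of these data known. All members were named, with family members and list genes at 2-fold (up to 3 highest and 3 lowest per comparison), family neighbours on the chromosome and the 8 genes of closest profile. Where a comparison is described, its leading genes under this rule are given and not every gene. Alternatives were another pseudocount, other filters and 3 rescalings.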

Additional observations from a re-analysis of the deposited data

Results flagged for a closer look

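For 8 genes the ratio of low to high Mg had opposite signs on the 2 days, with low Mg lower at 4 d and higher at 7 d. The same held for 28.9% of 14843 nuclear genes. The difference between the days (log2 ratio at 7 d minus that at 4 d) was 3.93 for XTH12, 3.83 for XTH26, 3.41 for XTH13, 3.17 for PRP3, 3.0 for XTH14, 2.55 for EXPA18, 2.38 for LRX1 and 2.35 for EXPA7. With 1 library per group this difference was not tested, and tools are named by the submitters for the 4-d libraries and not for those of 7 d. At 4 d the ratios of 5 of these 8 genes were short of 2-fold, so their change of sign starts from differences of -0.95 to -0.58. XTH12 rested on about 18.0 fragments in high Mg at 7 d. XTH13 rested on about 18.2 fragments in low Mg at 4 d and about 33.1 in high Mg at 7 d. XTH12 at 7 d and XTH13 on both days met the 5 FPKM requirement only through the library where they were higher.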

How the results depend on the processing

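No paired analysis was possible because every group is 1 library, and for the same reason no replicate could be left out. A pseudocount of 0.1, no filter and scaling by the median ratio kept all 12 counts of 2-fold members within 1.5 times the reported ones. AT2G01021 alone held 57.5% to 82.3% of the summed FPKM in the 4-d libraries and 15.6% to 18.5% in those of 7 d. Under TPM over all nuclear loci, which include it, the count for high Mg above control went from 4 to 10. That for low below high Mg at 4 d went from 5 to 10. That for 7 d above 4 d went from 3 to 9 in low Mg, and that for 7 d below 4 d from 10 to 5 in high Mg. The medians of all genes in these comparisons were then 1.04, -0.69, 1.76 and 1.18 in the same order, so the rescaling moved genes in general. Ratios of 7 d to 4 d that changed sign in this scaling were those of LRX1 (2.01) and LRX2 (1.78) in low Mg and of LRX2 (0.16) in high Mg. For low Mg against the control at 4 d, 7 of 8 ratios, all short of 2-fold, also changed sign. The median of the members for 7 d to 4 d became 2.38 in low Mg and -0.91 in high Mg. TPM over coding genes of at least 500 nt gave 5 members higher at 7 d in low Mg. In high Mg it gave 9 lower at 7 d in place of 10, with LRX2 at -0.76. A filter of 20 FPKM leaves fewer members. It gave 2 of 8 higher in high Mg than in control and 3 of 8 lower in low than in high Mg at 4 d. At 7 d against 4 d in low Mg it gave 1 of 6 higher. Every scaling and filter left all members measured below 0 for low against high Mg at 4 d. For the same comparison at 7 d, the members above 0 numbered 8 in each scaling and 6 of 6 with the 20 FPKM filter. The weakly covered genes PRP1, XTH12 and XTH13 are limited by depth.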
